A study of Mus musculus with 48 samples.

Results

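The interleukin-1 beta transgene was examined in mice kept at the Freising facility on chow, by setting 3 arrays labelled with the genotype pl2 against 3 arrays labelled WT. These 6 arrays, of 48 in the series, are those whose labels give these genotypes with Freising and chow; the comparison was singled out with earlier results of these data known. The groups used here were pl2 on chow at Freising and WT on chow at Freising, then, for comparison, pl2 and WT on a high fat diet (HFD) at Freising, and pl2 and WT on chow at the facility named MRI. Each of these groups had 3 arrays of mice with an endpoint of 12 months of age, and the labels gave no age of tamoxifen treatment for any of them. Whole tissue from the squamocolumnar junction and the cardia, where oesophagus and stomach meet, was profiled on Affymetrix arrays as part of a study of how Barrett oesophagus progresses. The labels gave no sex, litter or pairing and did not state whether a sample was 1 animal or a pool, so the p-values measure the spread between samples.

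In the mouse model of Barrett oesophagus called L2-IL-1B, human interleukin-1 beta is made in the squamous lining of the oral cavity, oesophagus and forestomach under an Epstein-Barr virus promoter. The genotype pl2 is taken here to be this line, which the labels themselves do not spell out. Interleukin-1 beta is a secreted cytokine that binds the receptor Il1r1, activates NF-kB, and leads to the release of chemokines that attract neutrophils. It is held in check by the receptor antagonist Il1rn and the decoy receptor Il1r2. A mouse probe set for Il1b need not measure a human transgene, and where the probes lie was not known here, so the Il1b values below do not show the transgene itself.

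The tissue label fitted its defining genes, since both the squamous and the gastric side were present in all 6 arrays. The squamous keratin gene Krt13 had log2 signals of 11.88, 11.32 and 12.08 in pl2, against 11.64, 11.72 and 11.95 in WT, and the parietal cell proton pump gene Atp4a had 12.32, 12.39 and 12.00 in pl2, against 12.72, 12.69 and 12.63 in WT. Array medians across the series were 4.03 to 4.27, and the lowest correlation between 2 arrays of the same group among the 6 was 0.948. Muscle signal differed within pl2. The mean log2 signal of 12 smooth muscle genes was 10.04, 6.93 and 7.60 in pl2 replicates 1, 2 and 3, against 9.72, 9.20 and 9.48 in WT. The mean of 9 hepatocyte genes was 4.43, 4.09 and 4.01 in pl2, against 6.05, 4.33 and 4.21 in WT, where replicate 1 stood apart. A suffix ends the titles of all 3 pl2 arrays and of none of the 3 WT arrays, and what it stands for was not given, so within these 6 arrays genotype and suffix cannot be told apart. In whole tissue, fewer cells of a type and less RNA per cell cannot be told apart either.

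Of 15242 genes tested, 250 passed an adjusted p of 0.05 in limma (1.64%). Of these, 111 rose in pl2 (0.728%) and 139 fell (0.912%). At least 2-fold differences were shown by 79 of the genes that rose and 77 of those that fell. The genes that rose were led by calprotectin, defensin and small proline-rich protein genes, and those that fell were led by interferon-induced genes. The median difference over all genes was -0.025 on the log2 scale. Where 2 or more arrays of the lower group lay below their array medians, a log2 difference is given without a fold, since the size of a fold against such dim signals is not settled. The number called was 65 without WT replicate 2, 74 without pl2 replicate 3, 150 without WT replicate 3, 161 without pl2 replicate 2, and 382 without pl2 replicate 1, the array with the high muscle signal. Of the 50 called genes that the naming rule picked, 28 passed with each of the 6 arrays left out in turn. Genes outside that rule were chosen after their values were seen; these are Atp4a, Zc3h12a, Casp4, Aim2, Nox1, Mmp8, Ngp, Ltf, Cxcl1, Cxcl2, Cxcl3, Defb1, Reg3g, Krt17, Sprr2e, Sprr1b, Sprr1a, Sprr3, Ivl, Krt14, Tnfaip3, Irak3, Klk5, Klk7, Lce3a, Lce3b, Lce3c, Lce3e, Lce3f, Trgv6, Cd163l1, Pdcd1, Cxcr6, Il17a, Irf9, Irf1, Tlr7, Ifitm3, Apol9a, Ube2l6, Egf, Foxa2, Dpt, Mfap5, Col15a1 and Gm20234.

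**Figure D1:**
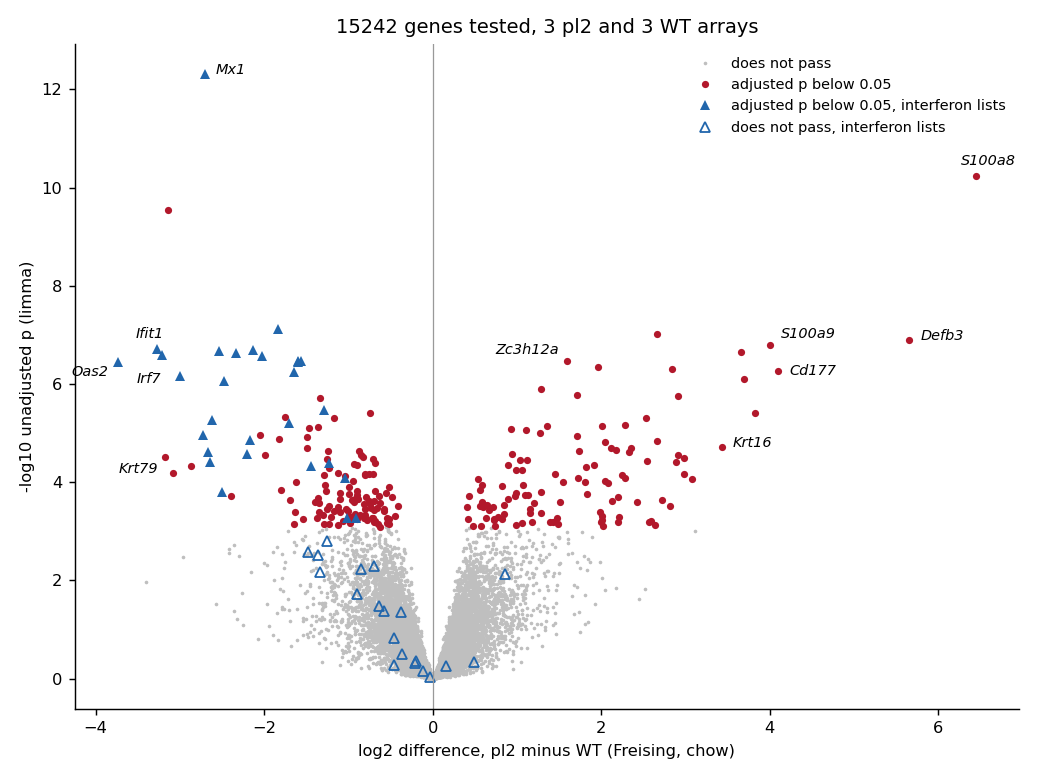
Log2 difference (pl2 minus WT, Freising chow, horizontal axis) against -log10 of the unadjusted limma p (vertical axis) for 15242 genes. Red points passed an adjusted p of 0.05, and blue triangles are members of the 2 lists of interferon-induced genes, filled where they passed; the 29 filled triangles all lie left of 0.

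Genes of the interleukin-1 system moved unevenly. Il1b had log2 signals of 5.56, 5.92 and 5.48 in pl2, against 3.91, 4.22 and 4.56 in WT. Every pl2 array lay above every WT array, yet the difference of 1.42 ± 0.65 (SE, n = 3 each) did not pass (adjusted p = 0.264). Non-overlap of this kind, with pl2 above, was seen in 12.9% of all genes tested. The antagonist gene Il1rn had 7.58, 7.30 and 7.94 in pl2 and 5.87, 5.85 and 6.46 in WT, a rise of 1.55 ± 0.35 (adjusted p = 0.0136). Casp1, the protease that cuts the interleukin-1 beta precursor, rose by 1.36 ± 0.26 (adjusted p = 0.00271), with 7.24, 7.0 and 7.76 in pl2 against 5.60, 5.87 and 6.45 in WT. These 2 were the only members of the interleukin-1 list to pass, of 15 tested, against 0.728% of all genes that rose. The list median was 0.31. Il1a gave 0.68 (adjusted p = 0.604), the signalling receptor gene Il1r1 gave 0.63 (adjusted p = 0.146), and the decoy receptor gene Il1r2 gave 0.04 (adjusted p = 0.978). The Il1rn call was lost without pl2 replicate 3 (adjusted p = 0.126), without WT replicate 1 (0.0626) and without WT replicate 2 (0.11), and the Casp1 call without pl2 replicate 3 (0.0527). In a fit of the 6 arrays alone Il1b passed (adjusted p = 0.0288).

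Of the inhibitors of NF-kB signalling, Nfkbia passed, while Tnfaip3 (0.14, adjusted p = 0.855) and Irak3 (0.31, adjusted p = 0.656) did not. Nfkbia, which encodes the inhibitor that holds NF-kB in the cytoplasm, had 9.19, 9.19 and 9.30 in pl2, against 8.69, 8.06 and 8.26 in WT, a rise of 0.89 ± 0.19 (adjusted p = 0.00803). Its call did not survive leaving out pl2 replicate 3 (adjusted p = 0.06) or WT replicate 2 (adjusted p = 0.119). Zc3h12a, whose product is an RNase that degrades cytokine messages, rose by 1.60 ± 0.25 (adjusted p = 0.000288), with 9.25, 9.40 and 9.61 in pl2 and 7.83, 7.54 and 8.10 in WT. Casp4, the sensor of cytosolic lipopolysaccharide, and Aim2, the sensor of cytosolic DNA, rose by 1.12 and 1.28. Of 23 NF-kB targets and cytokines tested, 3 rose (Cxcl5, Lcn2 and Nfkbia), against 0.728% of all genes. None fell, and the list median was 0.21.

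The promoter of Nfkbia is shown because its kappa B match belongs to a gene that rose. Below are the 150 bases before the gene start, from RefSeq on GRCm38.p6, chr12:55492648-55492797, minus strand, 5′ to 3′, with the match in capitals. The motif searched was GGG, any 2 bases, then TTTCC, on both strands, over 250 bases before to 50 after each gene start; here it lies on the opposite strand.
Nfkbia: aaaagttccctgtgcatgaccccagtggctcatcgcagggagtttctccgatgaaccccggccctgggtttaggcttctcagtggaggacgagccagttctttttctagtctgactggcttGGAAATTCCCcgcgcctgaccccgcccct
A match was found for 5 of the 87 genes that rose and had a promoter in the table (5.75%), namely Casp4, Il1rn, Nfkbia, Nox1 and Pglyrp1. It was found for 1 of 110 that fell (0.909%) and for 1.89% of all genes with a promoter.

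The largest log2 difference among the genes called was that of a neutrophil-associated gene. S100a8, a subunit of calprotectin, the metal-binding protein of neutrophils and of inflamed squamous epithelium, had 8.73, 9.57 and 9.06 in pl2, against 2.32, 3.36 and 2.36 in WT. The groups were far apart, with a difference of 6.44 ± 0.70 on the log2 scale (adjusted p = 4.41e-07), although the WT signals lay below the array medians. Its partner S100a9 had 7.63, 8.74 and 7.86 in pl2 and 4.16, 4.14 and 3.93 in WT, a 16-fold rise (adjusted p = 0.000288). The WT signals of S100a9 lay close to the array medians of 4.131, 4.109 and 4.119, so the size of this fold is uncertain. Cd177, a neutrophil surface protein, had 9.22, 10.14 and 10.29 in pl2 and 5.64, 5.84 and 5.87 in WT, 17.1-fold higher (adjusted p = 0.000375). Those 3 calls held with each array left out. They were the only ones among the 16 neutrophil genes tested of 20 listed, against 0.728% of all genes that rose. The list median was 0.21, and the difference was positive for 14 of 16, against 46.9% of all genes. The granule genes Mmp8 (0.20), Ngp (0.07) and Ltf (-0.15) lay near 0, none of them past the test, and Camp, Elane and Mpo were below the filter on low values. The chemokine receptor gene Cxcr2, at 7.03, 6.96 and 7.45 in pl2 and 5.15, 5.88 and 5.94 in WT, gave 1.49 ± 0.49 and did not pass (adjusted p = 0.117).

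A chemokine acting on that receptor, Cxcl5, had 7.29, 7.39 and 7.12 in pl2, against 3.50, 4.08 and 4.99 in WT. The rise of 3.07 ± 0.69 passed (adjusted p = 0.0121), but did not pass without pl2 replicate 3 (0.057), without WT replicate 1 (0.073) or without WT replicate 2 (0.0789). The related chemokine genes Cxcl1, Cxcl2 and Cxcl3 gave 0.56, 0.45 and 0.95 and did not pass.

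Antimicrobial genes of epithelium rose together in part, 6 of 20 tested, against 0.728% of all genes. None was called lower, and the list median was 0.76. Defb3, a beta-defensin, had 7.79, 8.02 and 9.35 in pl2, against 1.91, 2.84 and 3.45 in WT, a log2 difference of 5.66 ± 0.86 (adjusted p = 0.000288). Defb14 had 4.82, 5.57 and 5.19 in pl2 and 2.15, 2.45 and 2.32 in WT (2.89 ± 0.61, adjusted p = 0.00755). In WT, all 3 signals of both defensin genes lay below the array medians. The iron-scavenging protein gene Lcn2 rose by 2.53, the peptidoglycan receptor gene Pglyrp1 by 1.71, and Pigr, which carries immunoglobulin A across epithelium, by 2.09. Chil1, a chitinase-like secreted protein, rose by 1.98. Defb1, by contrast, gave -0.37 (adjusted p = 0.805), and Reg3g, a lectin of the gut lining, gave 0.80 (adjusted p = 0.524). The Pigr call was lost without pl2 replicate 2 (adjusted p = 0.0756), pl2 replicate 3 (0.0811) or WT replicate 2 (0.11), and Chil1 passed with only 1 of the 6 arrays left out, its highest adjusted p being 0.22. Calls for Defb3, Defb14, Lcn2 and Pglyrp1 held with each array left out. Lpo, an antimicrobial peroxidase that is in none of the lists, had 6.86, 6.34 and 7.35 in pl2 and 3.92, 3.91 and 3.78 in WT, where all 3 lay below the array medians (2.98 ± 0.63, adjusted p = 0.0069). It did not pass without pl2 replicate 3 (adjusted p = 0.0691).

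One list held keratins of injured or rapidly dividing squamous epithelium, small proline-rich proteins and late cornified envelope proteins. Small proline-rich proteins are crosslinked into the cornified envelope. Of 19 members tested, 8 were called higher, against 0.728% of all genes, and none lower. The list median was 1.60. The 8 were keratin and Sprr genes; the 5 late cornified envelope genes, Lce3a, Lce3b, Lce3c, Lce3e and Lce3f, did not pass and gave -0.66, -0.16, -1.12, -1.61 and -1.35. Krt16 had 10.71, 11.47 and 10.97 in pl2, against 7.56, 7.76 and 7.51 in WT, 10.8-fold higher (adjusted p = 0.00532). Its partners Krt6a and Krt6b rose by 2.54 and 2.66, while Krt17 gave 1.60 and did not pass (adjusted p = 0.0768). Sprr2f had 6.53, 7.05 and 7.34 in pl2 and 2.56, 2.78 and 4.49 in WT (3.69 ± 0.62, adjusted p = 0.000474). Sprr2g had 5.70, 5.14 and 6.14 in pl2 and 1.99, 1.69 and 2.32 in WT (3.66 ± 0.57, adjusted p = 0.000288), the WT signals below the array medians. Sprr2d, Sprr2e and Sprr1b also rose, by 1.82, 2.82 and 2.57, whereas Sprr1a gave 0.05 and Sprr3 gave 0.23. The members called numbered 4 without WT replicate 2, 5 without WT replicate 1 and 5 without pl2 replicate 3. Sequences of Sprr2 members are close to each other, so their signals may share RNA. The calls of Krt16, Sprr2f and Sprr2g held with each array left out, those of Krt6a and Krt6b were lost without pl2 replicate 2 (adjusted p = 0.0626) and WT replicate 2 (0.0517) in turn, and that of Sprr2d without pl2 replicate 3 (0.102), WT replicate 1 (0.0656) or WT replicate 2 (0.0619).

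This pattern did not extend to squamous genes at large. Of 26 suprabasal genes none passed and the median was -0.01; Krt13 gave -0.01 (adjusted p = 0.993), and the cornified envelope precursor gene Ivl gave -0.93 (adjusted p = 0.447). Of 14 basal genes 1 rose, against 0.728% of all genes. It was the desmosomal cadherin gene Dsg3 (1.39 ± 0.37, adjusted p = 0.0431). That call was lost with any of the 6 arrays left out (highest adjusted p 0.261). The basal list median was 0.59, and 9 of its 14 members had every pl2 array above every WT array (12.9% of all genes), among them Krt14 at 11.35, 11.44 and 11.46 in pl2 and 10.53, 10.20 and 10.79 in WT (0.91, adjusted p = 0.151).

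Single proteases of squamous epithelium rose, while the listed kallikrein genes Klk5 (-2.26, adjusted p = 0.369), Klk7 (-0.72, adjusted p = 0.709) and Klk13 (1.32, adjusted p = 0.137) did not pass. Klk14, a kallikrein that cleaves desmosomal proteins in skin, had 10.34, 10.43 and 10.92 in pl2, against 6.85, 7.88 and 8.02 in WT (2.98 ± 0.66, adjusted p = 0.0108). Tmprss11b, a membrane-bound serine protease, had 7.08, 8.30 and 7.78 in pl2 and 4.50, 4.77 and 5.16 in WT (2.91 ± 0.61, adjusted p = 0.00632). Of 6 Tmprss11 genes tested 3 rose, against 0.728% of all genes. This group was formed after the values were seen. Stfa1, a stefin that inhibits cysteine proteases, rose 14.2-fold, with 8.43, 8.17 and 8.82 in pl2 and 4.99, 4.30 and 4.65 in WT (adjusted p = 0.00179). Ugt8a, a galactosyltransferase of glycolipid synthesis, rose by 2.92 (adjusted p = 0.00092), and Rnase2b, an eosinophil-type ribonuclease, by 2.84 (adjusted p = 0.000362). Klk14 did not pass without pl2 replicate 3 (adjusted p = 0.0811) or WT replicate 1 (0.0701). Stefin A genes also occur in near-identical copies.

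**Figure D2:**
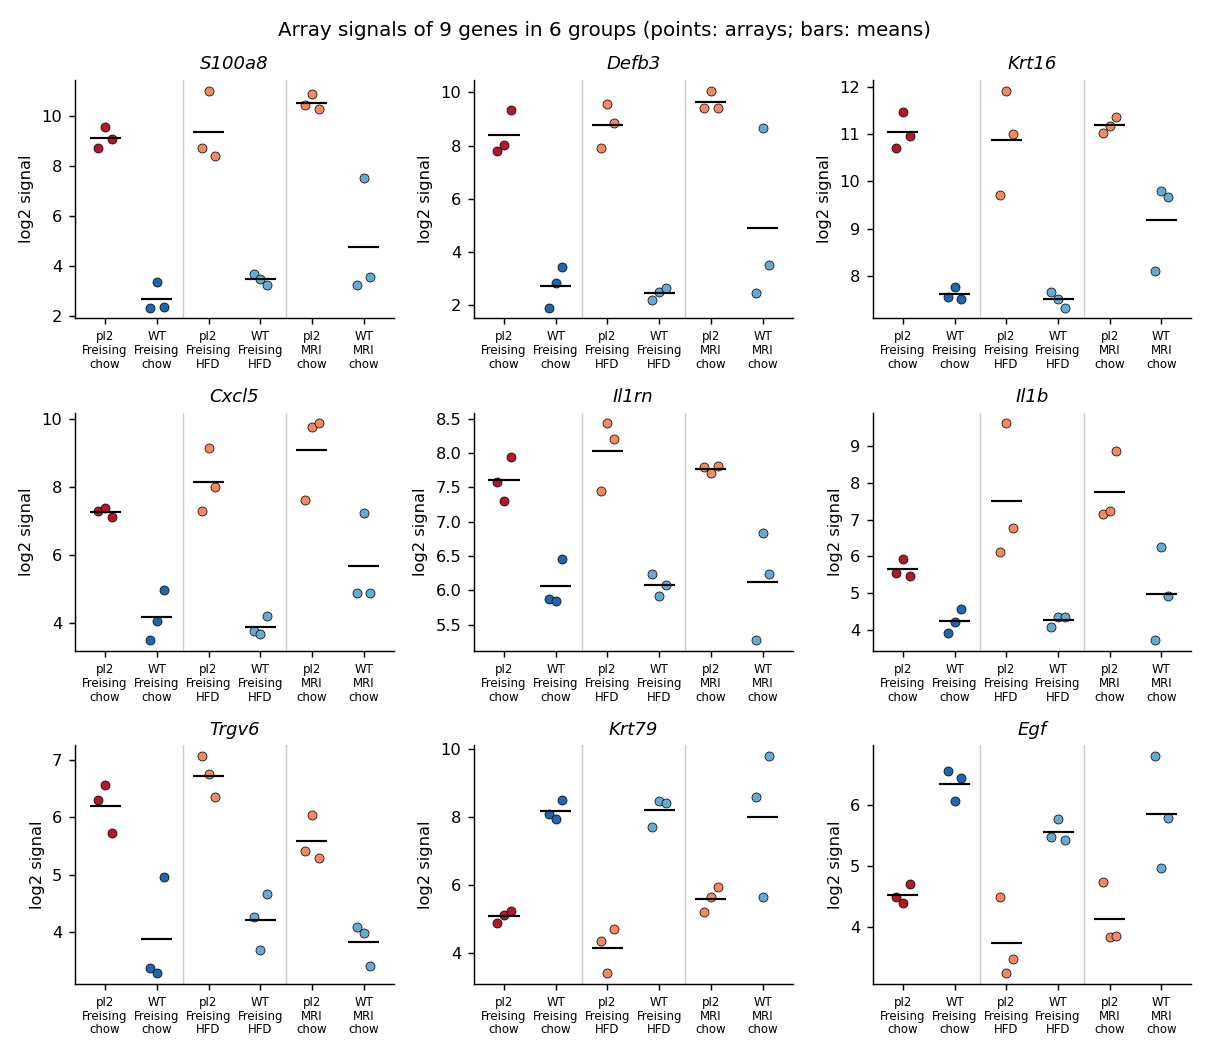
Log2 signal (vertical axis) of 9 genes in each array of 6 groups, pl2 beside WT of the same facility and diet; points are arrays and bars are means of 3. S100a8, Defb3, Krt16 and Cxcl5 in Freising chow pl2 arrays all lie above the WT arrays beside them, whereas Krt79 and Egf lie below.

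Single T cell genes rose, while the list of T and NK cell genes did not move as a whole. Cd3g, a chain of the T cell receptor complex, had 7.41, 7.43 and 6.57 in pl2, against 4.13, 5.22 and 5.90 in WT (2.05 ± 0.46, adjusted p = 0.0132). Cd3e rose by 1.83 ± 0.44 (adjusted p = 0.0204). Trgv6, a variable segment of the gamma chain that dermal and mucosal gamma delta T cells use, had 6.31, 6.57 and 5.72 in pl2 and 3.37, 3.28 and 4.96 in WT (2.33 ± 0.48, adjusted p = 0.00578). The groups did not overlap for any of these 3 called genes, and 12.9% of all genes had pl2 above WT without overlap. WT replicate 3 came closest to pl2 in Cd3g and Trgv6. Trgv6, like Cd163l1, Pdcd1 and Cxcr6 below, was chosen after the values were seen. Cd163l1, a scavenger receptor of gamma delta T cells, rose by 2.28 (adjusted p = 0.00269), the inhibitory receptor gene Pdcd1 by 2.04 (adjusted p = 0.0043) and the chemokine receptor gene Cxcr6 by 1.74 (adjusted p = 0.00578). Of 9 T and NK cell genes tested, 2 rose, against 0.728% of all genes, and the list median was 0.05. The difference was positive for 5 of the 9, and the lowest was -0.61. Il17a, a cytokine of such gamma delta cells, gave 0.66 (adjusted p = 0.374). Neither Cd3g (highest adjusted p 0.108) nor Cd3e (0.136) passed without pl2 replicate 2, WT replicate 1 or WT replicate 2.

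Interferon-induced genes were lower in pl2 than in WT on chow at Freising. That WT group was already known to have raised interferon genes when this comparison was chosen. A fall below therefore means lower than in that WT group. Type I and III interferons act through the factors Stat2 and Irf9, which bind an interferon-stimulated response element in promoters and switch on genes that detect or block viruses. Of 49 such genes tested in 2 lists, 29 fell and none rose, while 0.912% of all genes fell and 0.728% rose. These 29 made up 20.9% of all genes that fell. The median difference over the 49 was -1.44. Of the 49, 36 had every pl2 array below every WT array, which was seen in 13.6% of all genes. Of the 31 effectors 20 fell, and of the 18 sensors and regulators 9 fell. Mx1, a GTPase that blocks influenza-type viruses, had 3.51, 3.71 and 3.31 in pl2, against 5.95, 6.70 and 6.00 in WT (-2.71 ± 0.24, adjusted p = 7.5e-09). Oas2, which makes the activator of RNase L, had 6.22, 6.59 and 5.44 in pl2 and 9.65, 10.30 and 9.50 in WT, 13.3-fold lower in pl2 (adjusted p = 0.000288). Both genes lay in pl2 far below the lowest WT array.

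Among regulators, Irf7, the factor that amplifies interferon production, had 5.48, 5.45 and 5.25 in pl2, against 8.07, 8.69 and 8.40 in WT (-3.00 ± 0.50, adjusted p = 0.00044). Usp18, which removes the Isg15 tag and damps interferon receptor signalling, had 5.73, 6.07 and 5.38 in pl2 and 8.65, 9.55 and 8.62 in WT, 9.27-fold lower (adjusted p = 0.000288). The RNA sensor genes Ddx58 and Dhx58 fell by 1.56 and 2.13, and Stat2 and Irf9 fell by 1.30 and 1.23. Irf1 gave -0.21 (adjusted p = 0.775) and Tlr7 gave -0.03, neither past the test. Ligands and receptors of interferon stood apart from this, with 0 of 11 past the test and a median of -0.04. Ifnl3 gave -0.21 (adjusted p = 0.809), the receptor subunit genes Ifngr1 and Ifnar2 gave -0.38 and -0.20, and Ifnb1 and Ifng were below the filter. MHC class I genes, another set of interferon targets, had 0 of 16 past the test and a median of -0.41.

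Effectors named by the rule included Ifit1, which binds foreign RNA, at 4.77, 5.47 and 4.12 in pl2 and 7.68, 8.98 and 7.52 in WT (9.67-fold lower, adjusted p = 0.000288). Isg15, the ubiquitin-like tag, had 4.56, 4.20 and 4.18 in pl2 and 6.39, 5.99 and 6.05 in WT (3.56-fold lower, adjusted p = 0.000288). Bst2, which tethers budding viruses, gave -2.53 and Rsad2, an antiviral radical enzyme, gave -2.33, and both fell. Oas3, Oas1g, Oasl2, Rtp4, Mx2 and the immunity-related GTPase gene Igtp also fell, with -2.62, -2.65, -2.66, -2.48, -2.03 and -2.50. The one effector with every pl2 array above every WT array was Ifitm3 (0.86, adjusted p = 0.14). Genes in neither list but known as interferon-induced also fell, namely Apol9b (-3.18), Apol9a (-1.99), Ube2l6 (-1.49) and Trim30d (-2.87). The effectors called numbered 13 without WT replicate 2 or pl2 replicate 3, and the sensors and regulators 5 and 6. Of the 18 interferon-list genes that the rule named, 14 passed with each array left out. Ddx60, Oasl2, Oas1g and Igtp did not pass without pl2 replicate 3 (adjusted p = 0.0527, 0.0691, 0.0806 and 0.166) or WT replicate 2 (0.0505, 0.0608, 0.0763 and 0.147), nor Igtp without WT replicate 3 (0.0615), Apol9b without WT replicate 2 (0.11) or Trim30d without either of the first pair (0.13 and 0.11). Oas members are similar in sequence and their signals may share RNA.

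The promoters of 4 of these genes are shown because they carry the element through which interferon acts. Each line gives the 150 bases before the gene start, 5′ to 3′ on the gene's strand, from RefSeq on GRCm38.p6. Capitals mark matches on either strand to GAAA, any 2 bases, then GAAA, which reads TTTC, any 2 bases, then TTTC where it lies on the opposite strand, and neighbouring matches overlap in Isg15 and Bst2. Isg15 lies at chr4:156200819-156200968 on the minus strand, Ifit1 at chr19:34640739-34640888 on the plus strand, Rsad2 at chr12:26456453-26456602 on the minus strand and Bst2 at chr8:71537473-71537622 on the minus strand.
Isg15: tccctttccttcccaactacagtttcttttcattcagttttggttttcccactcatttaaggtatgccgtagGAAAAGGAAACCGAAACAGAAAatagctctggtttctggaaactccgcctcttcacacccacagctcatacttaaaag
Ifit1: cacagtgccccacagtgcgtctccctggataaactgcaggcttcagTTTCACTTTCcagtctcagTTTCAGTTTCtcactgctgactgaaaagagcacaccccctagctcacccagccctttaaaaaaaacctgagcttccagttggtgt
Rsad2: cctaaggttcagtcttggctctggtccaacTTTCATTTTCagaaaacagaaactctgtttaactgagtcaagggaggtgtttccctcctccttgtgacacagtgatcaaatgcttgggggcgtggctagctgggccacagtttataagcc
Bst2: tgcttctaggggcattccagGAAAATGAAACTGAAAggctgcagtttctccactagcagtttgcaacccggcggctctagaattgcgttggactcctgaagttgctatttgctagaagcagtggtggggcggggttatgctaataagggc
Isg15 has 3 matches, Ifit1 and Bst2 have 2 each, and Rsad2 has 1. Over the whole window of 250 bases before to 50 after the start, 12 of 20 interferon-list genes that fell and had a promoter in the table held a match (60%), against 19 of 36 in the lists as tested, whether they fell or not (52.8%). Among the other genes that fell it was 6 of 90 (6.67%), among those that rose 2 of 87 (2.3%), and among all genes with a promoter 3.99%. Of those 6 other genes, Apol9a, Apol9b and Trim30d are named above.

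The same genes were read in the other groups. That the WT side on chow had raised interferon genes was already known when this comparison was chosen. The effector list averaged log2 signals of 5.62, 5.74 and 5.21 in the pl2 arrays, against 6.82, 7.55 and 7.02 in the WT arrays. Over both lists, the other 45 arrays of the series, the 3 pl2 arrays included, had means between 5.10 and 6.32. WT mice on chow at Freising, set against WT mice on chow at MRI, had 29 of the 49 genes called higher and 0 lower, with a median of 1.18. Over all genes this comparison called 8.14%, 4.42% higher and 3.73% lower. In pl2 mice the same comparison of facilities called 0 of 49 (6 at an unadjusted p below 0.05), with a median of -0.29. Over all genes it called 1.21%, 0.59% higher and 0.623% lower. For Mx1, the 5.95, 6.70 and 6.00 of WT on chow at Freising stood beside 3.05, 3.50 and 3.76 in WT on HFD at Freising and 3.33, 3.81 and 2.85 in WT on chow at MRI. For Irf7, 8.07, 8.69 and 8.40 stood beside 5.94, 5.81 and 6.55 on HFD and 5.38, 6.82 and 5.49 at MRI. WT on chow at Freising was the high group, also against WT on HFD at Freising and WT on chow at MRI. What set that group apart was not tested.

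**Figure D3:**
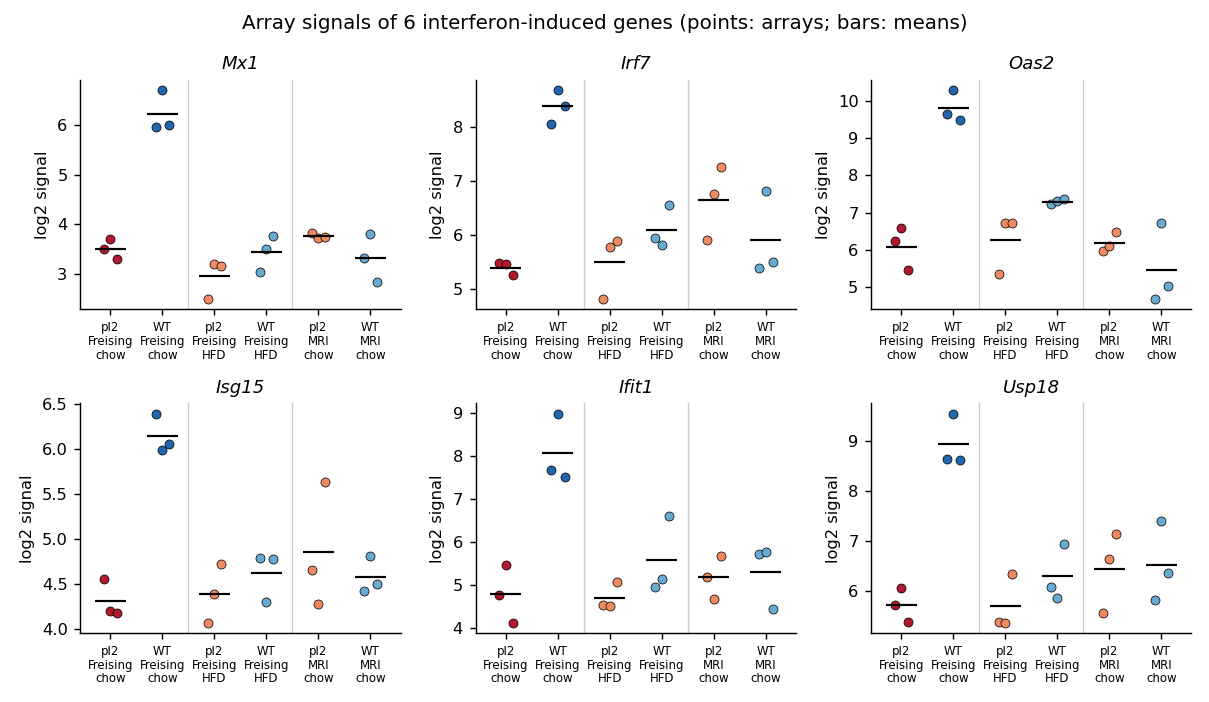
Log2 signal (vertical axis) of 6 interferon-induced genes in each array of 6 groups, pl2 beside WT of the same facility and diet; points are arrays and bars are means of 3. In all 6 panels the 3 WT arrays on chow at Freising lie above the 3 pl2 arrays beside them and above the other groups.

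Among genes that fell, Krt79, a keratin of gland ducts and hair follicle openings, was one of the furthest outside the interferon-induced genes. It had 4.89, 5.11 and 5.23 in pl2, against 8.09, 7.92 and 8.48 in WT, 8.48-fold lower (adjusted p = 0.0106), and did not pass without WT replicate 3 (adjusted p = 0.053). Egf, the epidermal growth factor, had 4.49, 4.39 and 4.70 in pl2 and 6.55, 6.06 and 6.44 in WT (-1.82 ± 0.36, adjusted p = 0.00391). Foxa2, a transcription factor of foregut and gastric glands, fell by 1.10 (adjusted p = 0.0323). Stromal genes that fell were the proteoglycan gene Dcn (-1.25, adjusted p = 0.0297), the matrix protein genes Dpt (-1.65) and Mfap5 (-1.25), and the basement membrane collagen gene Col15a1 (-0.90). Of 16 fibroblast and matrix genes tested, Dcn alone passed, against 0.912% of all genes that fell, and the median was -0.56. Its call was lost without pl2 replicate 2 (adjusted p = 0.106), pl2 replicate 3 (0.245), WT replicate 2 (0.166) or WT replicate 3 (0.185).

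Smooth muscle genes varied more within pl2 than between the groups. Acta2, the smooth muscle actin, had 12.21, 10.16 and 10.33 in pl2, against 12.24, 11.92 and 12.17 in WT, and did not pass (-1.21, adjusted p = 0.161). Des, the muscle intermediate filament, had 11.30, 6.90 and 7.91 in pl2 and 11.50, 10.67 and 10.74 in WT (-2.26, adjusted p = 0.201). In both, pl2 replicate 1 lay within the WT range or close to it and the other 2 pl2 arrays below, and without that array Acta2 (-1.87, adjusted p = 0.0215) and Des (-3.56, adjusted p = 0.032) passed. None of 12 smooth muscle genes passed, and the median was -1.20.

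Gastric gland genes were lower without passing. Every one of 10 parietal cell genes tested had all pl2 arrays below all WT arrays, against 13.6% of all genes, and none passed. Their median was -0.75, and their mean log2 signal was 8.65, 8.80 and 8.45 in pl2 and 9.51, 9.74 and 9.42 in WT. The water channel gene Aqp4 had 5.48, 5.53 and 5.64 in pl2 and 7.33, 7.65 and 6.82 in WT (-1.72, adjusted p = 0.0566), and the creatine kinase gene Ckb gave -1.19 (adjusted p = 0.0904). Among 10 enteroendocrine genes, 8 had pl2 below WT without overlap, none passed, and the median was -1.06. Somatostatin, Sst, had 10.06, 10.77 and 9.57 in pl2 and 11.94, 12.02 and 11.79 in WT (-1.79, adjusted p = 0.15). Neck and chief cell genes had a median of -0.67 with 6 of 10 below, and mast cell genes a median of -1.09 with 6 of 9 below, none past the test in either list. Cpa3, a mast cell protease gene, had 6.23, 7.93 and 6.93 in pl2 and 8.57, 8.67 and 9.17 in WT (-1.77, adjusted p = 0.129).

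**Figure D4:**
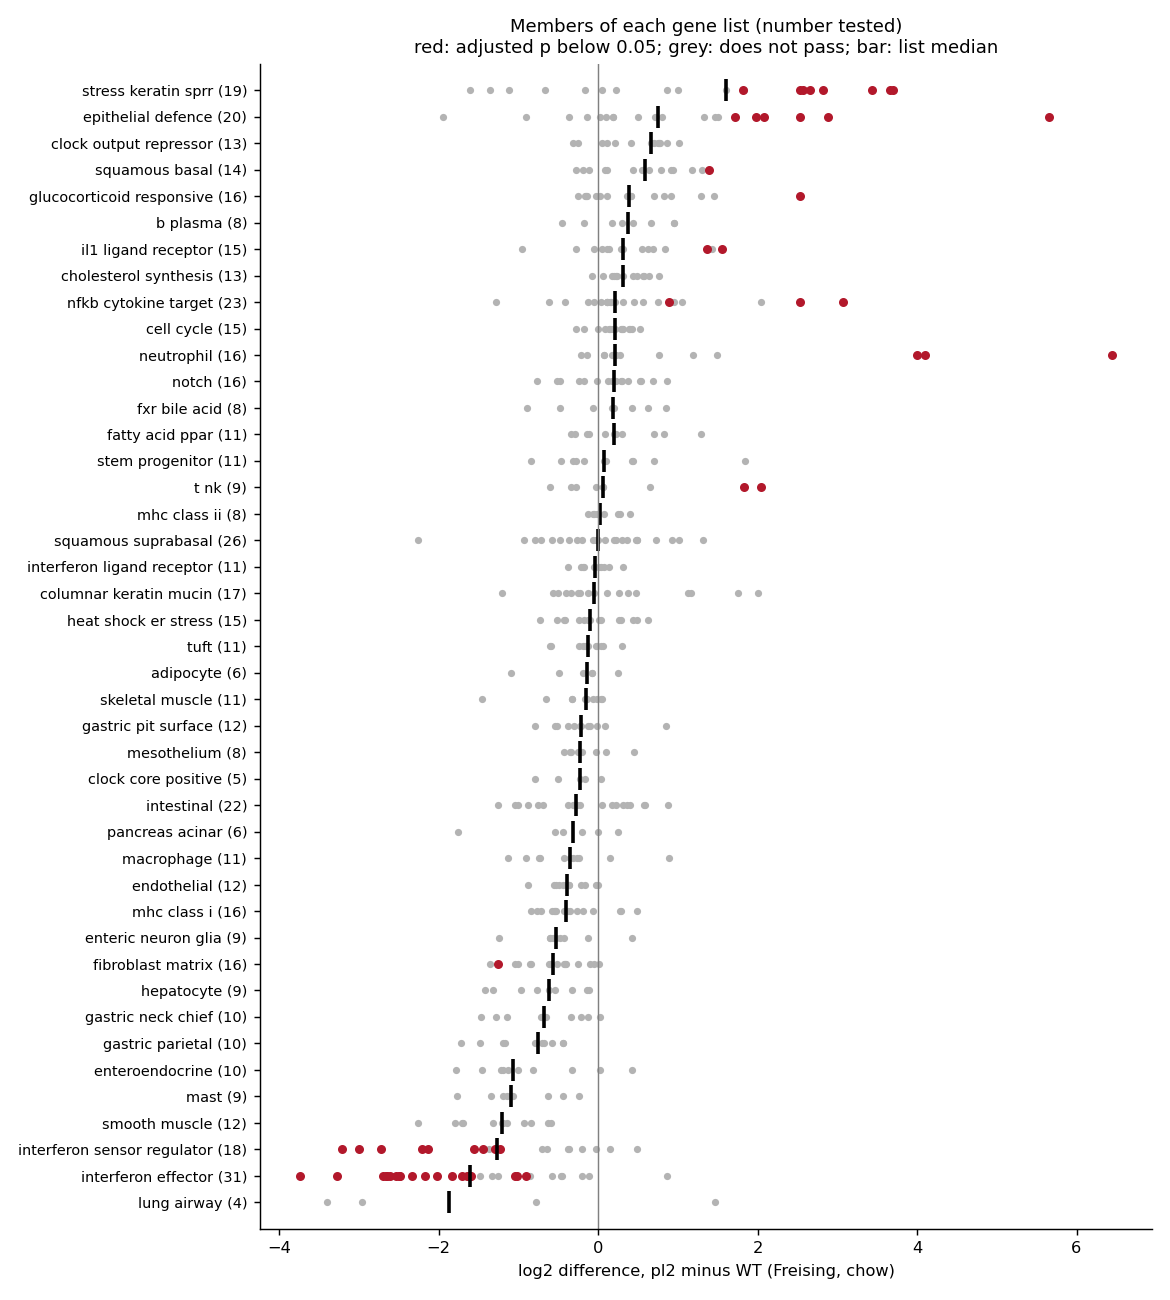
Log2 difference (pl2 minus WT, Freising chow, horizontal axis) of every tested member of 43 gene lists, sorted by the list median (black bar), with the number tested in brackets. Red members passed an adjusted p of 0.05; the 2 lists of interferon-induced genes hold 29 red members left of 0, and the stress keratin and Sprr list holds 8 right of it.

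Genes tied to the questions of the wider study showed little. The intestinal stem cell receptor gene Lgr5 gave -0.84 (adjusted p = 0.374), the tuft cell kinase gene Dclk1 gave -0.02 (0.981), and Nr1h4, which encodes the bile acid receptor FXR, gave -0.07 (0.958). None of 16 Notch pathway genes, 8 bile acid genes, 22 intestinal genes and 11 tuft cell genes passed. The membrane mucin gene Muc13, at 8.79, 9.39 and 10.03 in pl2 and 7.92, 6.84 and 7.44 in WT, gave 2.01 and did not pass (adjusted p = 0.148). Xist, which is expressed from the inactive X chromosome of females, was above a log2 signal of 8 in 0 of the 6 arrays, as in 0 of the 6 HFD arrays, but in 1 of 3 pl2 and 3 of 3 WT arrays at MRI.

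Whether the transgene difference was alike at both facilities was asked by testing the Freising difference against the MRI difference, which share no array. Xist was above a log2 signal of 8 in 3 of 3 WT and 1 of 3 pl2 arrays at MRI. In each chow group at Freising it was 0 of 3. All pl2 and WT titles on chow at MRI ended in a suffix, against only the pl2 titles on chow at Freising. The mean of 9 hepatocyte genes at MRI was 6.61, 5.40 and 8.28 in pl2 and 9.02, 4.54 and 4.79 in WT. What part these played was not tested. Limma called 268 genes (1.76%), 136 with a more positive difference at Freising (0.892%) and 132 with a more negative one (0.866%). Most of the rises at Freising were met at MRI. Of the 111 genes that rose at Freising, 74 also rose at MRI (66.7%, which is 4.72% of the 1568 that rose there), 94.6% had the same sign, and only 2 were called in the test of the difference. Of the 139 that fell, 39 also fell at MRI (28.1%, or 2.01% of 1944), 73.4% had the same sign, and 33 were called as different. Over all genes, 62.3% had the same sign at both facilities, and at MRI 23% were called, 10.3% higher and 12.8% lower.

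S100a8 gave 6.44 at Freising and 5.79 at MRI, Defb3 5.66 and 4.75, and Il1rn 1.55 and 1.66. At MRI, WT replicate 2 had S100a8 at 7.50 and Defb3 at 8.66, against 3.22 and 3.54, and 2.47 and 3.53, in the other 2 WT arrays. Lcn2 gave 2.53 at Freising and 3.95 at MRI, a difference that did not pass (-1.42, adjusted p = 0.235). Il1b gave 1.42 at Freising and 2.80 at MRI, where it passed (adjusted p = 0.00197), and this difference did not pass either (-1.38, adjusted p = 0.435). Neutrophil genes called higher numbered 3 of 16 at Freising and 12 of 16 at MRI, with medians of 0.21 and 1.93. Over all genes, 0.728% were called higher at Freising and 10.3% at MRI. None of the 16 was called in the test of the difference.

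The genes with the strongest evidence of a more negative difference at Freising were Mx1 (-3.14), Slfn4 (-3.96), Isg15 (-2.12), Dhx58 (-2.57), Irf7 (-3.74), Oas2 (-4.46), the PHD finger gene Phf11c (-1.80) and Preb (-1.15). Of the 49 interferon-induced genes, 22 were called in this direction, against 0.866% of all genes. At MRI itself the transgene difference over the 49 had a median of 0.01, with 3 called higher and 5 lower. Over all genes at MRI, 10.3% were called higher and 12.8% lower. Slfn4, a Schlafen gene of myeloid cells, had 5.61, 6.19 and 6.18 in pl2 and 7.25, 7.92 and 7.25 in WT at Freising, against 6.61, 6.66 and 7.33 in pl2 and 4.28, 5.21 and 3.67 in WT at MRI. It thus gave -1.48 (adjusted p = 0.0946) at Freising and 2.48 (adjusted p = 0.000228) at MRI, opposite in sign.

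Those with a more positive difference were led by Snrnp200 (0.69), Pbrm1 (0.83), Bhlhe41 (2.53), Casq1 (2.43), Kcns3 (1.32), Pik3ip1 (2.18), Gipc3 (1.88) and Smc3 (0.91). None of these 8 passed at Freising, and all 8 fell at MRI. Muscle and stromal lists moved with the MRI difference, and their part was not tested. Called lower in pl2 at MRI were 12 of 12 smooth muscle genes (median -2.53) and 8 of 11 skeletal muscle genes (median -1.88). So were 15 of 16 fibroblast and matrix genes and 11 of 12 endothelial genes, against 12.8% of all genes. Of the 11 skeletal muscle genes, 9 were called lower in WT at Freising than in WT at MRI (median -2.22), against 3.73% of all genes. For the transgene difference at Freising minus that at MRI, the median of the 11 was 1.71. Bhlhe41 is a repressor of the circadian clock, and it had 5.26, 4.71 and 4.76 in pl2 and 4.25, 4.10 and 4.04 in WT at Freising, against 5.09, 3.85 and 4.29 in pl2 and 6.03, 5.78 and 6.68 in WT at MRI. Dbp, a clock output factor, gave 1.01 (adjusted p = 0.362) at Freising and -2.75 (adjusted p = 0.000506) at MRI, and the difference passed (3.76, adjusted p = 0.015). Arntl, the clock activator that peaks opposite to Dbp, gave -0.80 (adjusted p = 0.225) and 1.06 (adjusted p = 0.0197), a difference of -1.86 (adjusted p = 0.0396). Zbtb16, a glucocorticoid-induced factor, gave 1.45 (adjusted p = 0.301) and -3.03 (adjusted p = 0.00205), a difference of 4.48 (adjusted p = 0.024). At Freising none of 13 clock output and repressor genes passed, with a median of 0.66, and none of 5 activators. The hour of tissue collection was not given, and its part was not tested. The number of genes called as different was 19, 28 and 990 without pl2 replicate 3, 2 or 1 at MRI, and 57 and 39 without WT replicate 1 or 3 there. It was 31 and 422 without pl2 replicate 1 or 2 at Freising, and 149, 30 and 106 without WT replicate 1, 2 or 3 there. Without WT replicate 2 at MRI, the array with high S100a8, it was 397.

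**Figure D5:**
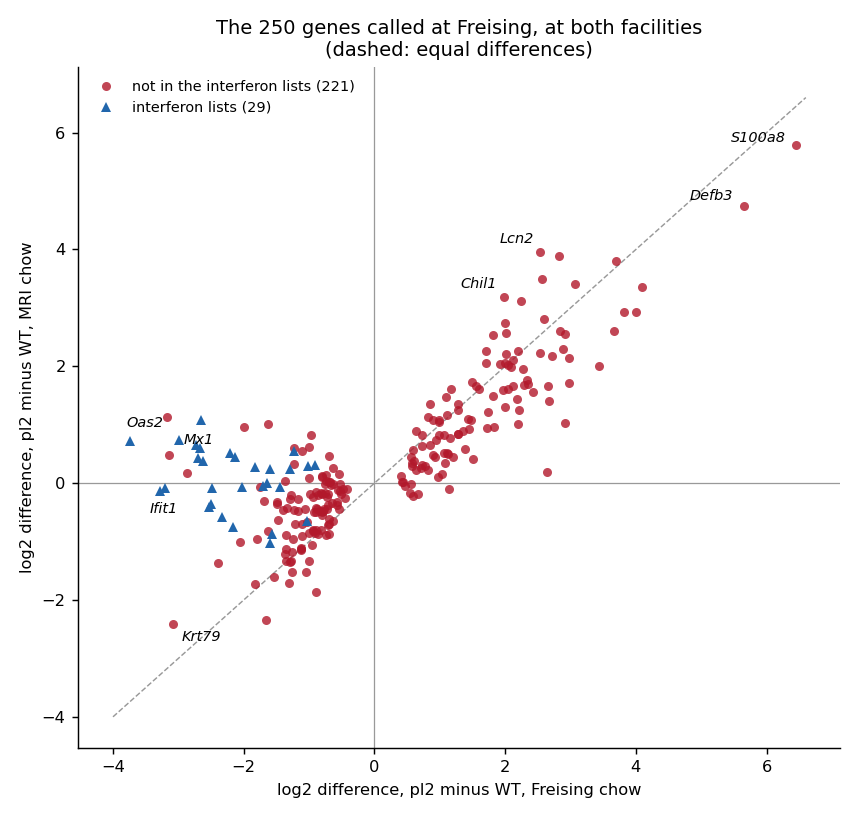
Log2 difference between pl2 and WT on chow at Freising (horizontal axis) and at MRI (vertical axis) for the 250 genes called at Freising; the dashed line marks equal differences. Genes that rose lie along the line, while the blue triangles of 29 interferon-induced genes lie left of 0 at Freising and on either side of 0 at MRI.

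Diet was examined in the same way, by testing the chow difference at Freising against the HFD difference at the same facility. Limma called 3 genes (0.0197%), all with a more negative difference on chow, and 885 at an unadjusted p below 0.05. They were Mx1 (-2.22, adjusted p = 0.00147), Slfn4 (-3.55, adjusted p = 0.0187) and the predicted gene Gm20234 (-3.49, adjusted p = 0.000938). In a fit of the 12 arrays alone none passed, and without WT replicate 1 on chow 5 did. Mx1 on HFD had 2.50, 3.21 and 3.16 in pl2 and 3.05, 3.50 and 3.76 in WT, a difference of -0.48 (adjusted p = 0.353). Slfn4 on HFD had 5.33, 8.24 and 6.00 in pl2 and 4.65, 4.17 and 4.56 in WT, a rise of 2.07 (adjusted p = 0.0149).

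Of the 111 genes that rose on chow, 54 also rose on HFD (48.6%, which is 38.6% of the 140 that rose there), against 0.919% of all genes (1.16% in either direction). Of the 139 that fell, 10 also fell on HFD (7.19%, or 27% of 37), against 0.243% of all genes. Krt79 was one of the 10, at 4.34, 3.40 and 4.70 in pl2 and 7.70, 8.46 and 8.40 in WT on HFD (-4.04, adjusted p = 0.000778). Egf fell by 1.82 on chow and 1.82 on HFD. Rises in S100a8 (5.92), Defb3 (6.35), Krt16 (3.37), Cxcl5 (4.26) and Trgv6 (2.51) passed on HFD as well. Genes called in the same direction in all 3 transgene comparisons, none of which share an array, numbered 49 of the 111 that rose and 8 of the 139 that fell.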

How the data were processed

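Total RNA from whole junction tissue was hybridised to Affymetrix arrays, 1 array per sample, 48 in all. The authors deposited each probe set's signal on a log2 scale, made with RMA in Affymetrix Expression Console, per the submitters' processing notes; its version and the genome build are not given in the sources used here. Of 34390 entries, 23521 carried 1 gene symbol and were used, 1814 carried several and 9055 none. Each symbol was represented by its entry with the highest mean over the 48 arrays (22180 symbols), and the 15242 above the array median in at least 3 of the 48 arrays were tested. A gene high in 1 group only could thus pass.

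Limma 3.58.1 in R 4.3.3 fitted 1 mean per group to all 48 arrays in 16 groups (32 residual degrees of freedom). Each of 7 comparisons gave two-sided p-values, adjusted by Benjamini-Hochberg over the 15242 genes, and an adjusted p under 0.05 made a call. The ± values are standard errors from this model. With 3 arrays a group, the number of arrays limits the precision. The procedure was tested on simulated data.

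The groups compared and the 43 gene lists were chosen with earlier results of these data known. The naming rule took a fixed set of genes tied to the study's questions, the 15 largest rises and 15 largest falls of genes that passed (predicted and clone-named ones left out), up to 6 called members of each list by p (or its 2 of smallest p), and the 8 smallest p-values per direction in both tests of a difference. The fit was repeated without the filter, with a stricter one, on the mean of a gene's entries, on the compared groups alone, with array weights, trended robust moderation, cyclic loess, with the title suffix, smooth muscle mean or squamous mean as a covariate, and without each array in turn (a group left with 2 arrays shares the pooled spread). Promoters came from RefSeq. No array pair was identical.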

Additional observations from a re-analysis of the deposited data

Results flagged for a closer look

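The transgene difference on chow differed between Freising and MRI, by a test of the difference itself, for 268 genes. The named ones more positive at Freising were Snrnp200 (0.69), Pbrm1 (0.83), Bhlhe41 (2.53), Casq1 (2.43), Kcns3 (1.32), Pik3ip1 (2.18), Gipc3 (1.88) and Smc3 (0.91), on the log2 scale. Those more negative at Freising were Mx1 (-3.14), Slfn4 (-3.96), Isg15 (-2.12), Dhx58 (-2.57), Phf11c (-1.80), Irf7 (-3.74), Oas2 (-4.46) and Preb (-1.15). The transgene difference at Freising differed between chow and HFD for 3 genes, of which Mx1 (-2.22) and Slfn4 (-3.55) were named by the rule, both more negative on chow.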

How the results depend on the processing

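All 250 genes called in pl2 against WT kept their sign under every alternative in which they were tested. Among genes not called, signs near 0 could turn, as for Il1r2. Against 250 called (111 higher, 139 lower), array weights, whose estimate stopped before it converged, gave 2472 (1040 and 1432), the title suffix as a covariate 153 (69 and 84) and the smooth muscle mean 147 (61 and 86); the squamous mean gave 168 higher. A fit of the 6 arrays alone called 291, of which 135 were among the 250. Leaving out 1 array gave 65 to 382 (34 to 107 higher, 31 to 275 lower). Over all alternatives, interferon effector genes that fell numbered 13 to 26, sensors and regulators 5 to 13, and neutrophil genes that rose 3 to 5. For the difference between facilities, against 268 (136 more positive, 132 more negative), no filter gave 173 (90 and 83), the compared groups alone 19 (2 and 17), array weights 3559 (1698 and 1861), cyclic loess 412 with 279 more positive, the title suffix 79 (38 and 41), the smooth muscle mean 95 (45 and 50), and leaving out 1 array 19 to 990 (5 to 538 and 14 to 452). For the difference between diets, against 3, the compared groups alone gave 0, array weights 545 (198 and 347), and leaving out 1 array 2 to 5, all more negative. The causes of these changes were not tested. No paired analysis was possible because the titles carry no replicate numbers shared between the groups.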

Other observations

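Genes outside the lists, chosen after their values were seen, add to the description of the lining. Nox1, an NADPH oxidase of epithelium that makes superoxide, had log2 signals of 6.11, 6.20 and 6.01 in pl2, against 3.40, 3.58 and 3.57 in WT (2.59, adjusted p = 0.0426). Slc7a11, the cystine importer used in glutathione synthesis, had 10.28, 10.08 and 10.62 in pl2 and 8.15, 7.83 and 8.99 in WT (4.01-fold higher, adjusted p = 0.00271). Il22ra1, the epithelial receptor subunit for interleukin-22, had 7.78, 8.47 and 8.31 in pl2 and 6.49, 6.18 and 6.78 in WT (1.71 ± 0.33, adjusted p = 0.00355). Hif1a, the oxygen-regulated transcription factor, rose by 1.28 (adjusted p = 0.00326), and all 4 genes also rose at MRI and on HFD.

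Several genes of the mitochondrial respiratory chain fell. Ndufa11, a subunit of complex I, had 8.45, 8.39 and 8.48 in pl2, against 9.68, 9.94 and 9.75 in WT (-1.34 ± 0.24, adjusted p = 0.000975), and Ndufb9 gave -0.86 (adjusted p = 0.00621). Complex I subunit genes with names starting in Nduf were grouped after the values were seen. Of these 33, 4 fell (0.912% of all genes fell) and none rose. The difference was negative for 28 of the 33, while 46.9% of all genes had a positive one. The median of the 33 was -0.27. At MRI 7 of 33 fell, against 12.8% of all genes. Of 14 cytochrome c oxidase subunit genes, Cox7a2 alone fell (-0.68, adjusted p = 0.0188). The lysosomal protease gene Ctsb had 10.61, 10.61 and 10.51 in pl2 and 11.28, 11.37 and 11.30 in WT (-0.74 ± 0.14, adjusted p = 0.00179), and it gave 0.04 at MRI.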
